A study of Mus musculus with 12 samples.

Results

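6 of the 12 brain myeloid cell libraries carried inhibitors of transcription and translation through the isolation, and they are compared here by how the tissue was taken apart. ENZ-INHIB is enzymatic digestion at 37 °C with inhibitors (3 libraries, replicates 1, 2 and 3). DNC-INHIB is cold Dounce homogenization with the same inhibitors (3 libraries, replicates 4, 5 and 6). The 6 libraries held 10303 of the 18830 barcodes that passed the filters in the whole series, where a barcode stands for a cell and was kept if it held 500 or more genes and 1000 or more UMIs, of which mitochondrially encoded genes gave no more than 10%. A UMI marks 1 captured RNA molecule, and the UMIs of the kept cells were summed per library over every gene of the count matrix.

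All animals were male C57BL/6J mice at P90, whole brain was used, and each library came from 1 animal. Live CD45+/CD11b+ cells were sorted by FACS and profiled by droplet-based sequencing of the 3′ ends of RNA. In both groups the inhibitors were present during perfusion (actinomycin D and triptolide), dissection (these with anisomycin) and the homogenization or digestion itself, so no library of the comparison is free of them. Digestion and Dounce differ in enzyme, temperature, duration and mechanical force at once, and these cannot be told apart. Each group had 1 library in batch 1 (DNC-INHIB 4 and ENZ-INHIB 1) and 2 in batch 2. The question of the comparison is whether digestion leaves a difference in RNA when the response to it is chemically held back. The remaining 6 libraries, ENZ-NONE (digestion, replicates 4, 5 and 6) and DNC-NONE (Dounce, replicates 1, 2 and 3), had no inhibitors and serve below as the same contrast in other animals.

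Microglia are the resident macrophages of the brain, and they answer warming, enzymes and loss of tissue contact within minutes by transcribing immediate early, stress and chemokine genes. Actinomycin D and triptolide block RNA synthesis and anisomycin blocks protein synthesis. With synthesis stopped, the RNA found in a cell is what was made earlier and has not yet decayed.

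The 6 libraries held 1965 to 2745 deposited barcodes and 2500723 to 3654465 UMIs each. Of these, 1360 to 2185 barcodes per library were kept, with 1856387 to 3233159 UMIs and a median of 1282 to 1572 UMIs per kept barcode. Any pair of the 6 libraries shared 1 to 12 cell barcodes, at most 0.717% of the smaller library. The microglial markers matched the label: the summed level of 10 markers, among them P2ry12, Tmem119 and Cx3cr1, was 37360 to 38890 CPM (UMIs per 1000000 UMIs of the kept cells) in DNC-INHIB and 37960 to 39290 CPM in ENZ-INHIB. Neutrophil markers separated libraries but not groups: S100a8, Ngp and Camp were high in DNC-INHIB 4, DNC-INHIB 6 and ENZ-INHIB 1, and the 8 neutrophil markers together ranged from 6.46 to 391 CPM after Dounce and from 0 to 534 CPM after digestion. Of 8 T and NK cell markers, Cd3e, Cd3d, Trac and Trbc2 were at 0 in all 6 libraries, and the sum was 0.928 to 3.33 CPM after Dounce and 1.13 to 25.7 CPM after digestion, with Gzma at 7.54 CPM in ENZ-INHIB 1 and 17.1 CPM in ENZ-INHIB 3. Of 6 B cell markers, 3 including Cd79a and Igkc were at 0, while Ighm was at 324 to 429 CPM and Cd79b at 45.6 to 55.3 CPM, and the sum was 378.9 to 415 CPM after Dounce and 444 to 479 CPM after digestion, without overlap. Of 8 endothelial and mural markers, 5 including Cldn5 were at 0, while Bsg was at 677 to 728 CPM and Pecam1 at 20.4 to 29.2 CPM, with overlapping sums (711.5 to 753 and 702 to 750 CPM). The 2 B cell and 2 endothelial markers above the count filter were not called, no T or NK cell marker passed that filter, and the part of these cells in the results below was not tested. In sums over all cells, fewer cells of a type and less RNA per cell cannot be told apart.

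Little differed between ENZ-INHIB and DNC-INHIB, and what passed the test was nearly all lower after digestion. Of 9611 genes tested, 32 (0.333%) passed an adjusted p under 0.05 with a change of more than 0.58 on the log2 scale in edgeR's quasi-likelihood test. These called genes were 30 lower (0.312%) and 2 higher (0.0208%). An unadjusted p under 0.05 was reached by 976 genes (10.2%), 589 lower (6.13%) and 387 higher (4.03%), while the median log2 fold change over all genes tested was 0.0005. In each of the 32 called genes the CPM of the 2 groups did not overlap, beside 15.6% of all genes tested (8.49% with ENZ-INHIB below and 7.11% above), and both come from the same contrast. The 30 genes called lower together made up 0.178% ± 0.0107 of the UMIs in DNC-INHIB and 0.101% ± 0.00376 in ENZ-INHIB (SD, n = 3), values their selection had fixed in direction.

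The number of calls depended on single libraries. It was 72 without ENZ-INHIB 1, 30 without DNC-INHIB 4, 16 without DNC-INHIB 6, 14 without DNC-INHIB 5, 14 without ENZ-INHIB 2 and 12 without ENZ-INHIB 3. Of the 32 genes, 8 were called in all 6 of these fits (Gm42418, Mir142hg, Klf13, A930033H14Rik, Gm20045, Fam212a, Gm26690 and Fkbp5), 4 in 4, 6 in 3, 8 in 2, 4 in 1 and 2 in none (Wdr38 and 5031425E22Rik). All 32 kept their direction in each of them. When all 12 libraries were in 1 fit, 17 of the 32 were not called: Klf13 (adjusted p = 0.27) and Fkbp5 (adjusted p = 0.208) of these 8, and 3830403N18Rik, Klf2, Gm10138, AC160336.1, Exosc2, Snhg20, Adrb1, Igf2bp3, Gt(ROSA)26Sor, Ccl7, Fxyd4, Tubb2a, Wdr38, 2900093K20Rik and 5031425E22Rik of the others.

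**Figure D1:**
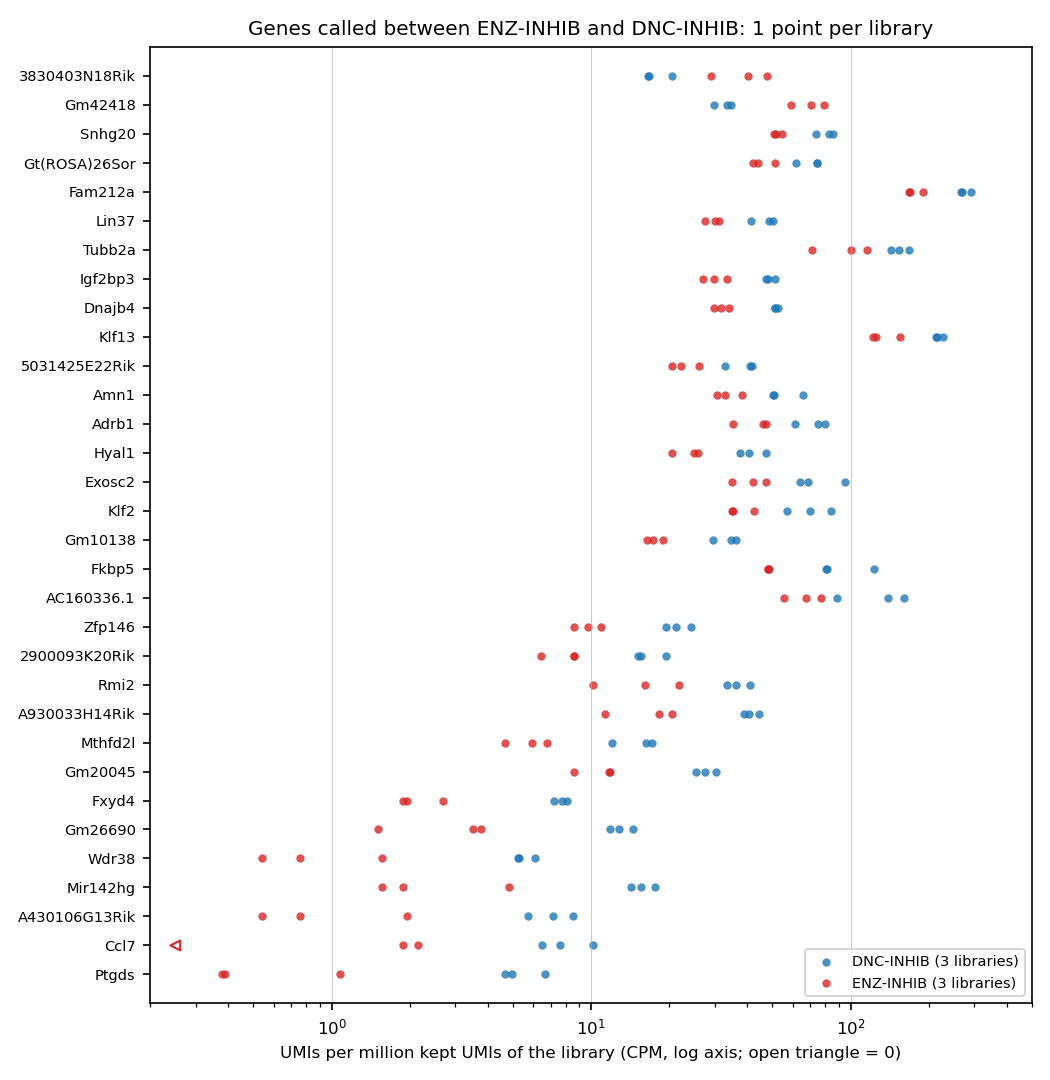
Level in CPM (x axis, log scale) of each of the 32 called genes (y axis), blue points being DNC-INHIB libraries and red points ENZ-INHIB libraries. An open triangle marks a level of 0. In the 30 genes called lower the red points lie left of the blue points, and in Gm42418 and 3830403N18Rik they lie to the right.

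The host transcript of miR-142 had the lowest p of the genes called lower. Mir142hg (ENSMUSG00000084796) is a spliced noncoding RNA at chromosome 11, 87755577 to 87757270 on the plus strand of GRCm38, with exons at 87755577 to 87755613 and 87757039 to 87757270. The intron between them holds the hairpin of miR-142, a microRNA of blood-derived cells and microglia, at chr11:87756864-87756927 (plus strand). The mature forms from RefSeq (GRCm38.p6) are printed because their hairpin lies in this intron, which the spliced transcript lacks, with the seed (bases 2 to 8) in capitals:
mmu-miR-142a-5p: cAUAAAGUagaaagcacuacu
mmu-miR-142a-3p: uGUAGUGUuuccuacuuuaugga
The libraries count polyadenylated RNA, so the host transcript was measured and the mature microRNAs were not. Mir142hg stood at 17.6, 15.6 and 14.2 CPM in DNC-INHIB 4, 5 and 6 and at 4.85, 1.89 and 1.56 CPM in ENZ-INHIB 1, 2 and 3, from 37, 41 and 46 UMIs against 9, 5 and 4. All 3 digested libraries were below all 3 Dounce libraries, at 16.7% of the Dounce level. On the log2 scale the change was -2.58 with an SE of 0.33 (adjusted p = 0.00165). Without inhibitors the levels were 10.0, 13.2 and 12.2 CPM in DNC-NONE and 1.38, 0.651 and 4.76 CPM in ENZ-NONE, again without overlap, with a log2 fold change of -2.08 that did not pass the adjusted test (adjusted p = 0.121). The other tested microRNA host, Mir17hg, which carries the miR-17 to miR-92a cluster, had overlapping levels (9.03, 4.94 and 6.8 CPM against 7.54, 3.02 and 1.17 CPM) and a log2 fold change of -0.92 (adjusted p = 0.511). The remaining 5 of the 7 genes on the microRNA host list were too low to test, among them Mirt1, which is not a microRNA host.

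A pair of Krüppel-like factors, zinc finger proteins that bind GC-rich and CACCC sites in promoters, were called lower after digestion. Klf13 (ENSMUSG00000052040, chromosome 7, 63886351 to 63938915, minus strand) was at 214, 227 and 214 CPM after Dounce and at 155, 125 and 122 CPM after digestion (-0.71 on the log2 scale, SE 0.09, adjusted p = 0.00165). Klf2 (ENSMUSG00000055148, chromosome 8, 72319033 to 72321656, plus strand), a factor that restrains inflammatory genes in macrophages and endothelium, was at 57.0, 69.9 and 83.8 CPM after Dounce and at 35, 42.6 and 35.1 CPM after digestion (-0.91 on the log2 scale, SE 0.15, adjusted p = 0.00984). The groups did not overlap in either gene. The call of Klf2 was lost without DNC-INHIB 6 or without ENZ-INHIB 3, and with all 12 libraries in 1 fit neither was called (adjusted p = 0.27 for Klf13 and 0.646 for Klf2). Of 10 Krüppel-like factors tested (of 17 listed, a list drawn up after values were seen), these 2 were called lower, none was called higher, 3 including Klf10 (-0.58, adjusted p = 0.266) were lower at an unadjusted p under 0.05, and the median was -0.22. Over all genes tested, 0.312% were called lower and 6.13% were lower at an unadjusted p under 0.05.
The 2 genes are shown with the sequence upstream of their starts because they parted without inhibitors. In DNC-NONE, Klf2 was at 91.2, 50.8 and 55.0 CPM, and in ENZ-NONE it was at 217, 313 and 1096 CPM, called higher (3.07, adjusted p = 0.0228), a call lost when any of the 3 DNC-NONE libraries was left out. Klf13 was at 360, 168 and 184 CPM in DNC-NONE and at 135, 150 and 178 CPM in ENZ-NONE, overlapping and not called (-0.59, adjusted p = 0.673). The difference between the digestion effects with and without inhibitors was -3.97 for Klf2 (adjusted p = 0.0113, called in 8 of the 12 fits that left out a library) and was not called for Klf13. The promoter stretches below are RefSeq's (GRCm38.p6), 220 bases ending 30 bases before RefSeq's own start of the gene (for Klf2 that start differs from the GENCODE start given above), at chr8:72318812-72319031 (plus strand) for Klf2 and chr7:63938946-63939165 (minus strand) for Klf13. Capitals mark a GC box (GGGCGG, or CCGCCC on the other strand) and a CCAAT box (CCAAT, or ATTGG on the other strand):
Klf2: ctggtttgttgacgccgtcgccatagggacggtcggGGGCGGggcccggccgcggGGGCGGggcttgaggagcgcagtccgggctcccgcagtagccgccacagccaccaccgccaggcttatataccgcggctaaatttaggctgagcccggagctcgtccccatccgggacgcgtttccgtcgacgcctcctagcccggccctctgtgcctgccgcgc
Klf13: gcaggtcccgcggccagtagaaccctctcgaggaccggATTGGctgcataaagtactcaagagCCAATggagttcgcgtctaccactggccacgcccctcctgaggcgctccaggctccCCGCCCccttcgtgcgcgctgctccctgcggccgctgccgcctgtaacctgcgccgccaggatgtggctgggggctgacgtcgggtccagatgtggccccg
The Klf2 stretch held 2 GC boxes and no CCAAT box, and the Klf13 stretch held 1 GC box and 2 CCAAT boxes. Over the whole promoter windows of RefSeq (250 bases before to 50 after the start, both strands searched), a GC box was in 15 of the 22 windows matched to genes called lower (68.2%), in 66.3% of the 7629 windows of tested genes and in 35.9% of all 27025. A CCAAT box was in 9 of the 22 (40.9%), against 39.2% of the tested and 37.9% of all windows. The CACCC box was in 11 of the 22, against 61.6% and 56.7%. The AP-1 site TGACTCA was in 1 of the 22 windows (Ptgds) and in 3.09% of those of tested genes.

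**Figure D2:**
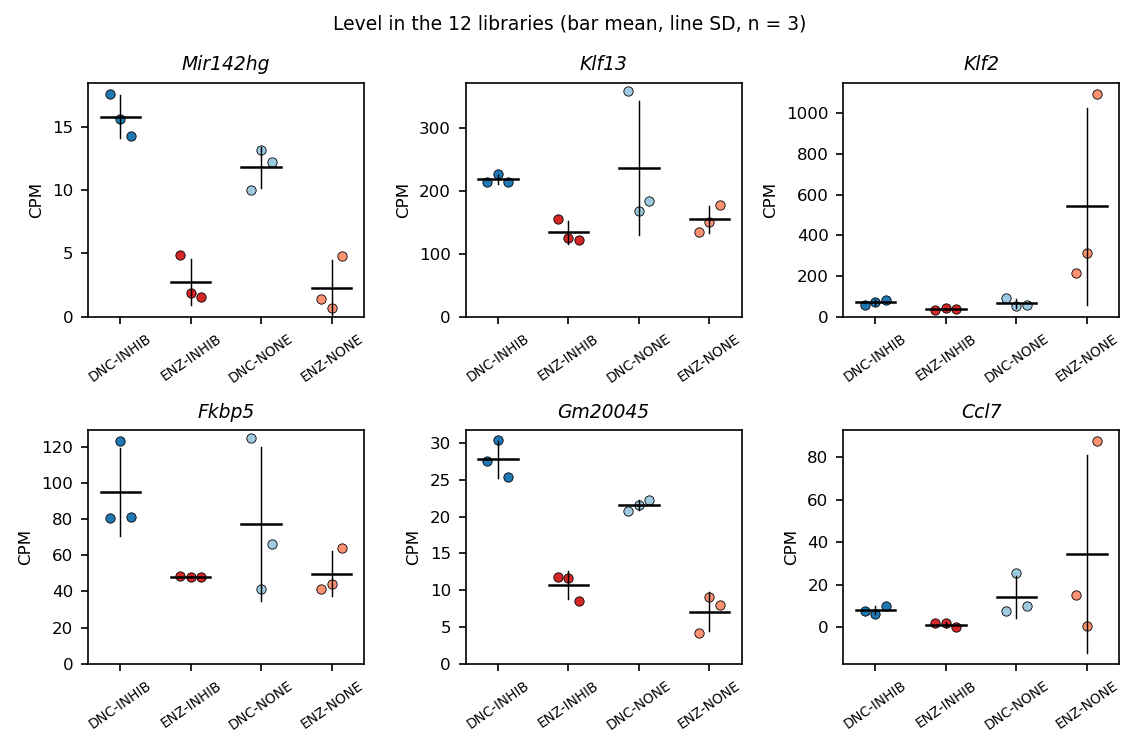
Level in CPM (y axis, linear, from 0 in all panels but Ccl7, where the SD line runs below 0) of 6 called genes in the 12 libraries by group, points being libraries, bars the mean and lines the SD (n = 3). In all 6 panels the ENZ-INHIB points lie below the DNC-INHIB points, while in the ENZ-NONE group Klf2 reached 1096 CPM and Ccl7 87.5 CPM in replicate 6.

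Of the genes that answer glucocorticoids, 1 was called lower after digestion. Fkbp5, a co-chaperone that damps the glucocorticoid receptor and is itself induced by it, was at 80.3, 123 and 81.3 CPM in DNC-INHIB and at 48.5, 48.2 and 47.9 CPM in ENZ-INHIB. The 3 digested libraries lay close together and below every Dounce library (-0.97, SE 0.15, adjusted p = 0.00604; adjusted p = 0.208 with all 12 libraries in 1 fit). Tsc22d3, which encodes the glucocorticoid-induced leucine zipper, was at 382, 308 and 240 CPM against 191, 235 and 161 CPM, and just missed the adjusted threshold (-0.65, SE 0.14, adjusted p = 0.0541). Of 11 tested genes of the 15 listed, 1 was called lower and none higher, 6 were lower and none higher at an unadjusted p under 0.05, and the median was -0.25. At that p, 6.13% of all genes tested were lower and 4.03% higher. Txnip, another member, was at 170 ± 4.99 against 180 ± 5.93 CPM (SD, n = 3).

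Clock genes, whose proteins cycle over the day and some of which are themselves hormone responsive, stood on both sides of 0. Of 13 tested, none was called, 5 were higher and 2 lower at an unadjusted p under 0.05, and the median was 0.29. The shares over all genes tested at that p were 4.03% higher and 6.13% lower. Nfil3, a repressor in the clock and a cytokine-responsive factor, was at 14.7, 12.9 and 10.8 CPM after Dounce and at 6.46, 4.90 and 5.85 CPM after digestion (-1.15, adjusted p = 0.0611). Nr1d2, a nuclear receptor that represses clock genes, was at 26.6, 31.6 and 23.5 CPM against 45.2, 35.8 and 35.1 CPM (0.50, adjusted p = 0.207). The groups did not overlap in either gene, and neither passed the adjusted test.

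The other protein-coding genes called lower served separate functions. Fam212a (named Inka1 in current annotation), which encodes an inhibitor of the kinase PAK4, was the most abundant of the 32: 268, 290 and 267 CPM after Dounce and 170, 168 and 190 CPM after digestion (-0.64, SE 0.09, adjusted p = 0.00185). Its ranges were separated by more than either group's spread. Among genes of RNA and DNA metabolism, Exosc2, a subunit of the RNA exosome, was at 63.7, 95 and 68.3 CPM against 47.4, 35 and 42.1 CPM (-0.88, adjusted p = 0.0133). Rmi2, a subunit of the complex that resolves recombination intermediates with the BLM helicase, was at 33.3, 36.1 and 41.1 CPM against 16.2, 10.2 and 21.8 CPM (-1.21, adjusted p = 0.0123). Its partner Rmi1 was at 48.0, 46.8 and 47.3 CPM against 32.3, 30.5 and 38.6 CPM without being called (-0.48, adjusted p = 0.125). In these genes, too, every digested library was below every Dounce library. Igf2bp3, an RNA-binding protein of mRNA transport (-0.69), Lin37, a subunit of the cell-cycle repressor complex MuvB (-0.65), and Zfp146, a protein made almost wholly of zinc fingers (-1.11), were also called lower. In the lists these genes belong to, 1 of 25 tested genes of RNA exosome and decay was called (Exosc2, median 0.01), 1 of 18 p53 and DNA damage genes (Rmi2, median 0.01) and 1 of 290 zinc finger protein genes (Zfp146, median -0.08, with 26 lower and 2 higher at an unadjusted p under 0.05). Among all genes tested, 0.333% were called, and 6.13% were lower and 4.03% higher at an unadjusted p under 0.05.

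Dnajb4, a co-chaperone of Hsp70, was at 51.3, 51.3 and 52.6 CPM after Dounce and at 31.8, 29.8 and 33.9 CPM after digestion (-0.70, SE 0.12, adjusted p = 0.0123), so that the gap was far wider than the spread in either group. Tubb2a, a β-tubulin, was at 143, 168 and 154 CPM against 71.1, 101 and 115 CPM (-0.67, adjusted p = 0.0275). Reads of Tubb2a can be shared with its near-identical copy Tubb2b, which makes its count uncertain. It was the sole called member of 19 tested tubulin and actin genes, whose median was -0.05. Adrb1, the β1-adrenergic receptor, through which noradrenaline acts, was at 74.6, 79.8 and 61.2 CPM against 45.8, 47.1 and 35.1 CPM (-0.74, SE 0.13, adjusted p = 0.016). Hyal1, a lysosomal hyaluronidase, was at 37.5, 40.7 and 47.3 CPM against 20.5, 24.9 and 25.7 CPM (-0.81, adjusted p = 0.0192), and it overlaps Nat6 on the same strand. Both genes were lower in every digested library. Mthfd2l, a mitochondrial enzyme of folate metabolism (-1.35), and Amn1 (-0.74) completed this group, along with A930033H14Rik, listed as protein coding, at 39.0, 44.5 and 40.5 CPM against 20.5, 11.3 and 18.3 CPM (-1.33, SE 0.18, adjusted p = 0.00165).

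Noncoding RNAs made up 10 of the genes called lower. Of the 30, 10 (33.3%) were annotated as something other than protein coding, beside 261 of 9611 genes tested (2.72%). Among genes at an unadjusted p under 0.05 the share was 12.4% of the lower and 2.33% of the higher ones. Over the 261 noncoding genes tested, 10 were called lower and 1 higher, 73 were lower and 9 higher at an unadjusted p under 0.05, and the median log2 fold change was -0.21. Called-lower genes also spanned less of the genome (median 5602 bases, against 23110 for all tested), had more members with 1 exon (13.3% against 2.29%), and, where coding, shorter 3′ UTRs (median 758 against 1150 bases). For genes lower at an unadjusted p under 0.05 these values were 15820 bases, 7.13% and 1166 bases, so their 3′ UTRs were not shorter. The AU-rich letters TATTTAT, which occur in unstable mRNAs, were in the 3′ UTR of 5 of the 20 coding ones and of 29.9% of those tested. Per kilobase of 3′ UTR they occurred 0.455 times in the called-lower genes and 0.28 times in all tested. In genes lower at an unadjusted p under 0.05 the value was 0.251. These shares describe the genes and were not tested.

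Gm20045, transcribed from 1 exon at chromosome 1, 171320601 to 171326177 on the minus strand, was at 27.6, 30.4 and 25.4 CPM in DNC-INHIB and at 11.8, 11.7 and 8.57 CPM in ENZ-INHIB (-1.37, SE 0.18, adjusted p = 0.00165). Gm26690, at chromosome 7, 127982570 to 127984881 on the minus strand, was at 12.8, 11.8 and 14.5 CPM against 3.77, 1.51 and 3.51 CPM (-2.19, SE 0.32, adjusted p = 0.00374). AC160336.1, at chromosome 14, 44544055 to 44637201, was at 88.9, 161 and 140 CPM against 77, 55.4 and 67 CPM (-0.99, adjusted p = 0.0123). All 3 were lower in every digested library, but for AC160336.1 the log2 difference was -0.21 between the batch 1 libraries and -1.29 between those of batch 2. It also overlaps gene copies, so that its reads may be divided. Snhg20, a host of a small nucleolar RNA, was at 82.2, 85.5 and 73.6 CPM against 51.7, 50.5 and 54.2 CPM (-0.62, adjusted p = 0.0133). It was the sole called member of the snoRNA host list, of which 6 genes were tested with a median of -0.01. That list also holds Gnas, a coding gene not known for this role. A430106G13Rik (-2.58) rested on 18, 15 and 23 UMIs against 1, 2 and 5. 2900093K20Rik (-1.11, adjusted p = 0.0322) and 5031425E22Rik (-0.73, adjusted p = 0.0465) were called with the largest p of the 32 and are named here after their values were seen.

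Several of the called genes lie opposite a coding gene, and none of these partners was called. Gm10138, at 29.5, 36.1 and 34.6 CPM against 18.9, 17.3 and 16.4 CPM (-0.94, adjusted p = 0.011), overlaps Ivns1abp on the opposite strand, which was at 588 ± 35.4 against 626 ± 34.5 CPM (SD, n = 3), with overlapping libraries. A930033H14Rik overlaps Rhobtb1, at 49.4 ± 4.45 against 52.2 ± 7.09 CPM. Gt(ROSA)26Sor, the transcript of the Rosa26 locus used for mouse transgenes, was at 74.1, 61.6 and 74.2 CPM against 51.2, 44.1 and 42.1 CPM (-0.62, adjusted p = 0.0274), while Thumpd3 opposite it was at 78.8 ± 2.41 against 74.5 ± 1.47 CPM. The exception was 2900093K20Rik, whose partner Oser1 had 154, 140 and 139 CPM against 126, 114 and 102 CPM without being called (-0.34, adjusted p = 0.133). Overlap with a gene on the opposite strand was annotated for 15 of the 30 genes called lower and for 3367 of the 9611 tested. Whether the counting used strand is not given in the sources used here, and without strand the reads of such a pair cannot be told apart.

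**Figure D3:**
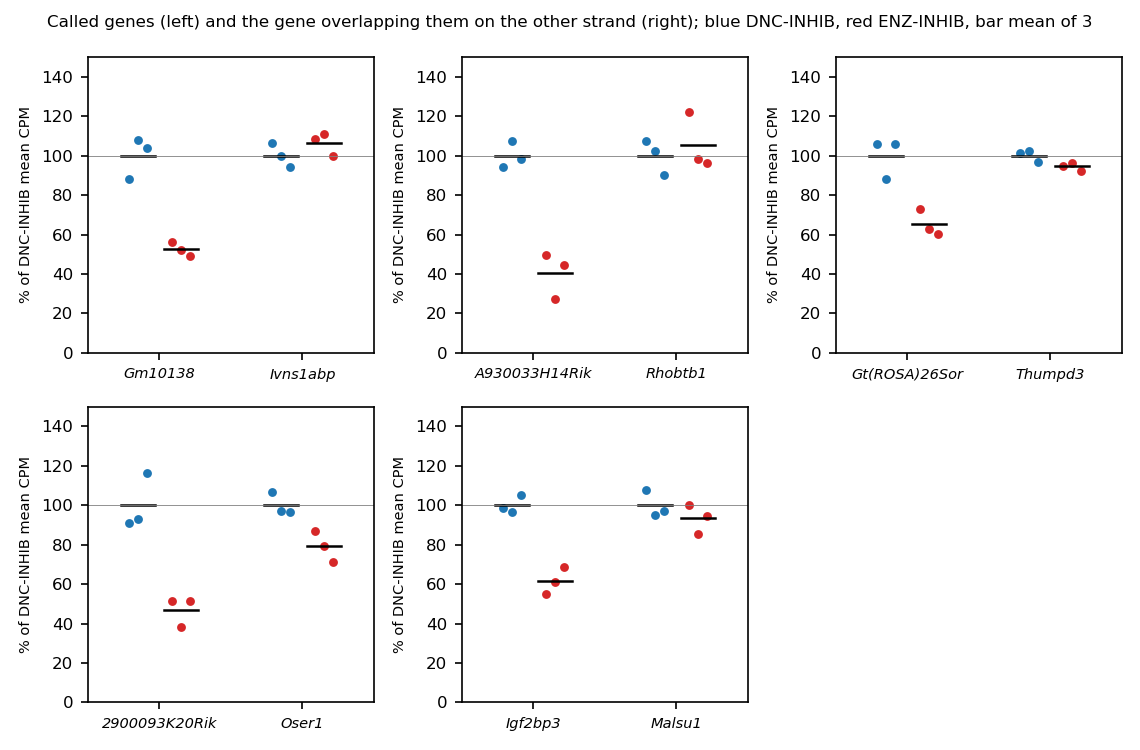
Level in the 6 libraries as a percent of the mean CPM of DNC-INHIB (y axis) for 5 called genes (left in each panel) and the tested gene on the opposite strand of each (right), blue points being DNC-INHIB libraries, red points ENZ-INHIB libraries and bars the group mean (n = 3). Gm10138, A930033H14Rik and Gt(ROSA)26Sor were lower in every ENZ-INHIB library, while the libraries of Ivns1abp and Rhobtb1 overlapped between groups.

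Some called genes had few molecules or belong to cells other than microglia. Ptgds, a prostaglandin D synthase abundant in meninges, choroid plexus and oligodendrocytes, was at 6.65, 4.94 and 4.64 CPM after Dounce and at 1.08, 0.377 and 0.390 CPM after digestion, from 14, 13 and 15 UMIs against 2, 1 and 1 (-3.11, SE 0.55, adjusted p = 0.0151). The levels of the 5 choroid plexus markers together were 1.14 to 4.28 CPM after Dounce and 0.539 to 3.90 CPM after digestion, with Folr1 at 0, and the 8 oligodendrocyte markers summed to 138 to 175 and 132 to 155 CPM. Of the oligodendrocyte markers, 4 were tested and none was called. Fxyd4, a regulator of the sodium pump (8.08, 7.22 and 7.73 CPM against 2.69, 1.89 and 1.95 CPM, -1.82, adjusted p = 0.0275), and Wdr38 (5.23, 6.08 and 5.26 CPM against 0.539, 0.754 and 1.56 CPM, -2.42, adjusted p = 0.0292) were as scarce. The calls of Ptgds and Fxyd4 held in 1 of the 6 fits that left out a library, the one without ENZ-INHIB 1. All 7 tested border macrophage markers had lower levels after digestion and none was called, their sum being 77 to 133 CPM in DNC-INHIB and 55.4 to 91.6 CPM in ENZ-INHIB. The 6 dendritic cell markers summed to 30.03 to 85.5 against 12.9 to 36.1 CPM, with Clec9a and Ccr7 at 0. The part of these cells in the called genes was not tested beyond leaving out the 655 barcodes with at least 2 markers of other immune cells, after which 29 of the 30 called genes still tested were called, 2900093K20Rik being the exception.

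Chemokines draw leukocytes and are among the genes microglia switch on when handled. Ccl7, which attracts monocytes, was at 7.6, 6.46 and 10.2 CPM in DNC-INHIB and at 2.15, 1.89 and 0 CPM in ENZ-INHIB (-2.64, SE 0.51, adjusted p = 0.0275), with 33 UMIs at most in a library. Ccl2, its neighbour in function, was at 23.3, 16.3 and 12.1 CPM against 8.08, 9.80 and 3.51 CPM, with no overlap and no call (-1.23, adjusted p = 0.0997). Ccl4 was at 64.2, 82.1 and 38.0 CPM against 27.5, 42.6 and 32.0 CPM (-0.80, adjusted p = 0.147), and Ccl3 at 22.8, 28.1 and 24.7 CPM against 31.2, 9.80 and 19.1 CPM (-0.40, adjusted p = 0.646). Both of these overlapped between the groups. Of 14 tested chemokine and cytokine genes, Ccl7 alone was called, 4 were lower and 1 higher at an unadjusted p under 0.05, and the median was -0.08. At that p, 6.13% of all genes tested were lower and 4.03% higher. The call of Ccl7 was lost in 5 of the 6 fits that left out a library and without a filter on barcodes.

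The 2 genes called higher after digestion were a noncoding RNA and an X-linked coding gene. Gm42418 (ENSMUSG00000098178), at chromosome 17, 39846958 to 39848788 on the plus strand, lies at a copy of the ribosomal RNA repeat, so its reads may come from ribosomal RNA elsewhere. It was at 33.3, 34.6 and 29.7 CPM in DNC-INHIB and at 79.2, 70.1 and 58.9 CPM in ENZ-INHIB, 213% of the Dounce level (1.09, SE 0.13, adjusted p = 0.00135). Every digested library was above every Dounce library, and Gm42418 was called higher without inhibitors as well (31.6, 42.3 and 41.6 against 71.6, 62.5 and 62.6 CPM, 0.84, adjusted p = 0.0301, called in 1 of the 6 fits that left out a library). AY036118, on the opposite strand of the same repeat, was at 10.9, 8.36 and 11.4 CPM against 14, 13.2 and 17.1 CPM and was not called (0.53, adjusted p = 0.397). Gm26917, the remaining rRNA-like transcript listed, lay the other way, at 48.5, 40.7 and 34.0 CPM against 36.1, 26.4 and 33.9 CPM, overlapping and not called (-0.34, adjusted p = 0.452). 3830403N18Rik was at 16.6, 20.5 and 16.7 CPM against 29.1, 40.3 and 47.5 CPM (1.15, SE 0.18, adjusted p = 0.00982). Its call was lost without DNC-INHIB 6 or without ENZ-INHIB 3, and the groups without inhibitors overlapped (18, 16.9 and 35 against 42.2, 20.2 and 10.6 CPM).

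A further 9 genes passed the adjusted p with a smaller change (41 genes, 0.427%, passed it in all). Rbm3, an RNA-binding protein gene known to be induced by cold, was at 40.4, 41.4 and 37.1 CPM after cold Dounce and at 58.2, 61.1 and 57.3 CPM after digestion, and its change of 0.58 lay just under the threshold before rounding (SE 0.11, adjusted p = 0.0275). Ddx5, an RNA helicase, was at 731, 769 and 774 CPM against 1101, 983 and 942 CPM (0.41, adjusted p = 0.0292). The groups did not overlap in either gene. BC037034 (0.42) and Trpc4ap (0.44), an adaptor of a ubiquitin ligase, were also higher. The lower ones were Tnpo3, a nuclear import receptor (-0.54), Lpar6, a lysophosphatidic acid receptor (-0.41), Arl10, an Arf-like GTPase (-0.55), and the noncoding Gm26724 (-0.54). The gene next in order of p, Rbm4b, missed the adjusted threshold (-0.46, adjusted p = 0.0527).

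Few of the genes that mark the handling response in this study were called. Of the activation list drawn up from all brain cell types, 11 of 19 genes were tested with inhibitors, none was called and the median was -0.16. Of the list drawn up from these sorted cells, 19 of 25 were tested, Klf2 was called lower, none was called higher, and the median was -0.09. Without inhibitors the same lists held 12 of 17 and 21 of 25 tested genes called higher, with medians of 2.60 in both. These libraries took part in choosing the sorted-cell list, so its direction there is not independent evidence. The list from all brain cell types came from unsorted cells of other mice in the study, and it shares genes with the sorted-cell list. Junb, an AP-1 subunit, was at 407, 393 and 406 CPM in DNC-INHIB and at 404, 294 and 301 CPM in ENZ-INHIB (-0.28, adjusted p = 0.308). Hspa1a, the inducible Hsp70, which has a near-identical copy, was at 15.2, 16 and 4.64 CPM against 3.23, 7.54 and 6.24 CPM (-0.94, adjusted p = 0.426). Hist1h1c, a linker histone, was at 53.7, 50.2 and 50.4 CPM against 33.9, 29.8 and 48.3 CPM (-0.45, adjusted p = 0.269). The first pair overlapped between the groups and Hist1h1c did not. Fos, with 18 UMIs in the 3 Dounce libraries and 19 in the 3 digested ones, Egr1, with 18 and 14, and Hspa1b, with 10 and 9, were too scarce to test.

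Immediate early genes had 15 of 29 members tested, 1 called lower (Klf2), and a median of -0.16. Short-lived regulator mRNAs had 33 of 42 tested, none called, 11 lower and none higher at an unadjusted p under 0.05, and a median of -0.17. Beside this and the list counts that follow, 6.13% of all genes tested were lower and 4.03% higher at that p. Among the short-lived regulators, Zfp36l2, which promotes decay of AU-rich mRNAs, was at 528, 534 and 477 CPM against 383, 431 and 352 CPM (-0.39, adjusted p = 0.0638). Of the heat shock chaperones 18 were tested, Dnajb4 was called lower, 8 were lower and none higher at an unadjusted p under 0.05, and the median was -0.21. Hspa5, the chaperone of the endoplasmic reticulum, was at 1158, 1260 and 1083 CPM against 1008, 1020 and 965 CPM (-0.22, adjusted p = 0.328). Replication-type histones had 8 of 67 tested, none called and a median of -0.10. Genes of the integrated stress and unfolded protein response had 14 tested, none called, 4 lower and none higher at an unadjusted p under 0.05, with Xbp1, its central transcription factor, at 447, 488 and 460 CPM against 381, 383 and 345 CPM (-0.33, adjusted p = 0.093) and Sdf2l1 at -0.32 (adjusted p = 0.147). Of 17 genes for NF-kB subunits and inhibitors none was called and the median was 0.07, with Nfkbia, the inhibitor of NF-kB, at -0.31 (adjusted p = 0.468).

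**Figure D4:**
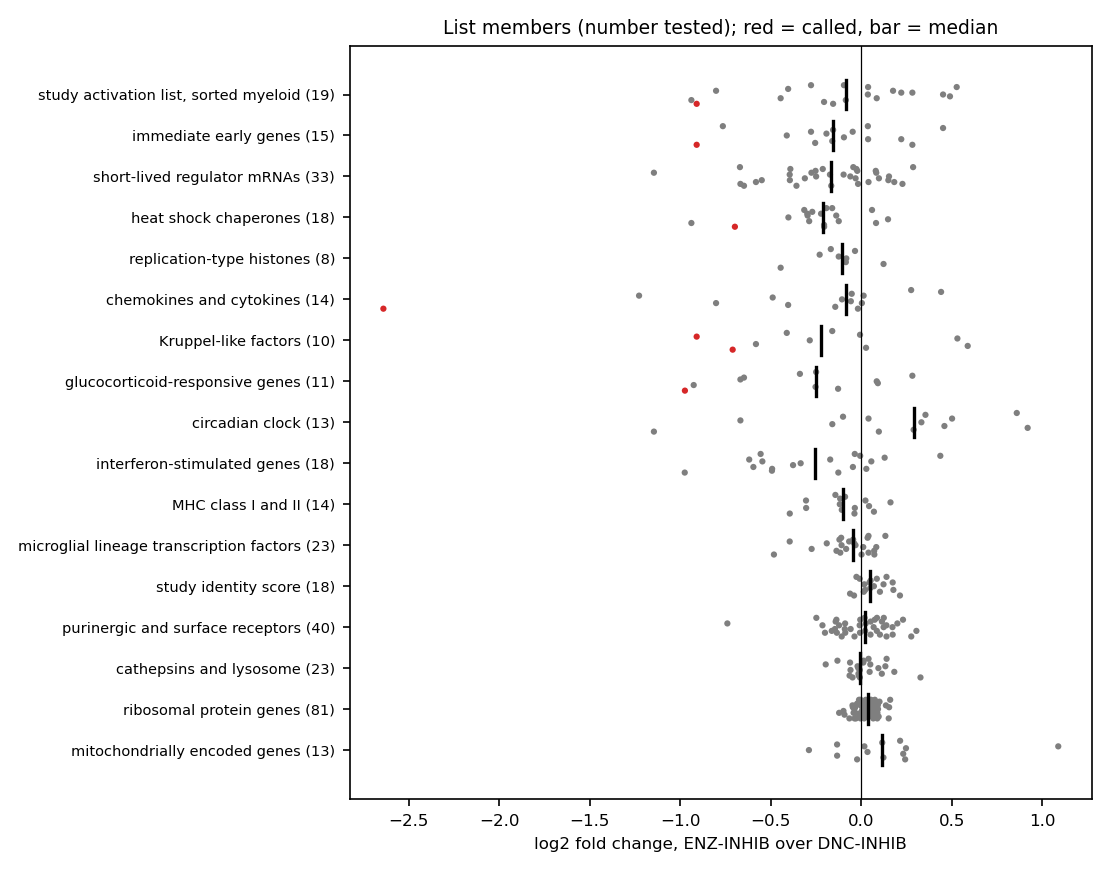
Log2 fold change of ENZ-INHIB over DNC-INHIB (x axis) of the tested members of 17 gene lists (y axis, number tested in brackets), red points being called genes and black bars list medians. The stress, chemokine and Krüppel-like lists hold the called genes left of 0, the clock median is at 0.29, and the ribosomal protein genes lie between -0.12 and 0.16.

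No gene that defines microglia was called. All 18 genes of the study's identity score were tested, and the median was 0.05. P2ry12, the ADP receptor that steers microglial processes, was at 7681, 7624 and 7078 CPM after Dounce and at 7913, 7614 and 7610 CPM after digestion, a change of 0.05 on the log2 scale with a 95% confidence interval of -0.12 to 0.22. Tmem119 had an interval of -0.13 to 0.27 and Cx3cr1, the fractalkine receptor, of -0.08 to 0.25. The intervals of these 3 genes thus left out a change of more than 0.27 in either direction. The smallest p in the score was that of Adgrg1, an adhesion receptor, at 368, 322 and 330 CPM against 379, 372 and 426 CPM (0.21, adjusted p = 0.397). Identity genes made up 8.10% ± 0.149 of UMIs in DNC-INHIB and 8.17% ± 0.245 in ENZ-INHIB (SD, n = 3, two-sided exact permutation p = 0.7, where the smallest possible p is 0.1).

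No gene was called among 40 purinergic and surface receptors, 23 lineage transcription factors, 23 cathepsin and lysosome genes, 20 disease-associated microglia genes, 5 complement genes, 14 MHC genes and 18 interferon-stimulated genes. Itgam, which encodes CD11b, a protein used in the sort, was at 294, 310 and 287 CPM against 365, 328 and 384 CPM (0.28, adjusted p = 0.217). Cebpb, a myeloid transcription factor, was at 625, 578 and 474 CPM against 456, 432 and 383 CPM (-0.40, adjusted p = 0.09), and Tgif1, a repressor in TGFβ signaling, at 66.1, 60.8 and 65.3 CPM against 46.9, 49.0 and 41.3 CPM (-0.48, adjusted p = 0.0715). In all 3 genes the groups were apart, and none passed the adjusted test. Npc1, a lysosomal cholesterol transporter, was at 82.7, 84.4 and 83.5 CPM against 109, 100.3 and 105 CPM (0.33, adjusted p = 0.147). Cd74, the invariant chain of MHC class II, was at 1871, 1486 and 1704 CPM against 1313, 1131 and 1392 CPM (-0.39, adjusted p = 0.0926), and Axl, a receptor of dying cells, was at 14.7, 15.6 and 24.4 against 11.8, 13.2 and 8.57 CPM (-0.74, adjusted p = 0.236). Cd74 and Axl are also high in border macrophages, whose markers were lower in sum as given above, and that part was not tested. The interferon-stimulated list had 5 members lower and none higher at an unadjusted p under 0.05, beside 6.13% and 4.03% of all genes tested. Its median was -0.25 with inhibitors and -0.40 without. Ifit2 (-0.97, adjusted p = 0.303) and Rtp4 (-0.62, adjusted p = 0.328) had its smallest p values. Properdin, Cfp, led the complement genes (-1.25, adjusted p = 0.149).

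Housekeeping groups differed little. Of 81 ribosomal protein genes tested none was called, none had an unadjusted p under 0.05, and the median was 0.04. Mitochondrially encoded genes had 13 tested, none called, 4 higher and none lower at an unadjusted p under 0.05, and a median of 0.12. All genes tested had 4.03% higher and 6.13% lower at that p. Of the mitochondrial genes, mt-Co1, a subunit of complex IV, was at 1165, 1225 and 1288 CPM against 1571, 1337 and 1440 CPM (0.24, adjusted p = 0.29). The mitochondrially encoded share of UMIs was 1.04% ± 0.0467 after Dounce and 1.13% ± 0.0970 after digestion (SD, n = 3, two-sided exact permutation p = 0.2). Taken as the median over kept barcodes, it was 0.921% to 0.9665% after Dounce and 0.994% to 1.176% after digestion, without overlap (exact permutation p = 0.1). The shares for ribosomal protein genes were 4.29% ± 0.436 and 4.38% ± 0.617 (exact permutation p = 0.8), and those for 3 rRNA-like transcripts (Gm42418, AY036118 and Gm26917) 0.00838% ± 0.000876 and 0.0116% ± 0.00112 (exact permutation p = 0.1, the smallest this design allows). With that floor no such share could pass the threshold of 0.05, before or after adjustment. Among 71 nuclear respiratory chain genes, 39 proteasome subunits, 15 glycolysis and hypoxia genes, 9 cell cycle genes and 15 genes of oxidative stress and iron none was called, with medians from -0.03 to 0.07. Of 3 tested nuclear-retained RNAs none was called (median -0.09). Malat1, a nuclear noncoding RNA used as a sign of nuclear content, was at 58450, 58680 and 59790 CPM against 61130, 54260 and 51000 CPM (-0.09, adjusted p = 0.796). Kept barcodes had a median of 1326 ± 71.1 UMIs after Dounce and 1465 ± 152 UMIs after digestion (SD over the 3 library medians, exact permutation p = 0.2).

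The same contrast in the 6 libraries without inhibitors, which share no animal with those above, moved the genes called lower in the same direction for the most part. Of the 30, 27 were tested there and 25 were lower, the exceptions being Klf2 and Ccl7. Of the 27, 7 were called lower: A930033H14Rik, Gm20045, Fam212a, AC160336.1, Rmi2, Zfp146 and Tubb2a. They are 23.3% of the 30 genes called lower with inhibitors and 77.8% of the 9 called lower without, where 9 of 9302 genes (0.0968%) were called lower. In all, 19 of the 27 were lower at an unadjusted p under 0.05, beside 3.69% of all genes tested without inhibitors. The median of the 27 was -0.64 without inhibitors, that of all genes tested in both 0.003. Of the 4591 genes with a negative log2 fold change with inhibitors, 59.3% had one without. The 7 shared calls held in 1 to 3 of the 6 fits without inhibitors that left out a library, all with the same sign. Ptgds, A430106G13Rik and Wdr38 were too low to test without inhibitors. The groups without inhibitors also differed in cell content. Their neutrophil markers summed to 9.20, 1652 and 4053 CPM in DNC-NONE and to 0.918, 5.86 and 15.4 CPM in ENZ-NONE. DNC-NONE 2 kept 855 barcodes, 34.0% of those deposited.

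Zfp146 was at 24.2, 21.3 and 19.5 CPM in DNC-INHIB, at 8.62, 10.9 and 9.74 CPM in ENZ-INHIB, at 23.6, 25.4 and 21.6 CPM in DNC-NONE and at 11.9, 6.51 and 5.86 CPM in ENZ-NONE. Its 6 digested libraries were below its 6 Dounce libraries. For Gm20045 the libraries without inhibitors were at 20.8, 21.6 and 22.2 CPM after Dounce and at 4.13, 9.11 and 8.06 CPM after digestion (-1.57, adjusted p = 0.025). For Tubb2a they were at 149, 136 and 174 CPM and at 89.5, 95 and 90.5 CPM (-0.70, adjusted p = 0.0188). For Rmi2 they were at 44.0, 48.9 and 35.5 CPM and at 16.5, 26.7 and 16.9 CPM (-1.08, adjusted p = 0.0376). In each of these 4 genes all digested libraries were below all Dounce libraries of the same inhibitor status. Fkbp5 was not among them: DNC-NONE had 124, 41.4 and 66.0 CPM and ENZ-NONE had 41.3, 44.2 and 64.1 CPM, overlapping (-0.64, adjusted p = 0.762).

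In the other direction the contrasts shared little. Without inhibitors 29 genes (0.312%) were called higher, 21 of them were tested with inhibitors, and of these 1 was called higher (Gm42418) and 1 lower (Klf2). The median of the 21 was 2.10 without inhibitors and -0.10 with them. The digestion effect itself differed between the inhibitor conditions in 17 of 9884 genes (0.172%), in each of them by a smaller or more negative change with inhibitors than without. Of the 32 genes called with inhibitors, Klf2 alone was among the 17, so for the other called genes a difference between the contrasts was not shown. Across the 9228 genes tested in both, which are not independent replicates, Pearson's r of the log2 fold changes was 0.277 and Spearman's rho 0.290.

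**Figure D5:**
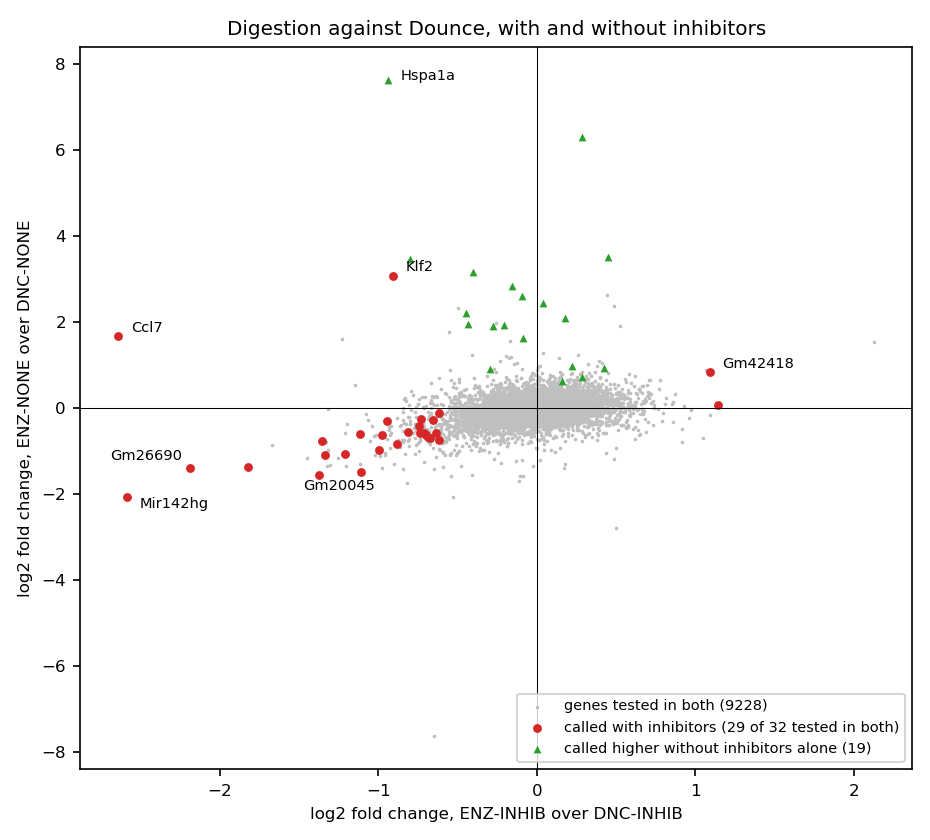
Log2 fold change of digestion over Dounce with inhibitors (x axis) and without (y axis) for the 9228 genes tested in both, with red circles for the 29 called with inhibitors and green triangles for the 19 called higher without inhibitors and not called with them. Most red circles lie in the lower left, Klf2 and Ccl7 in the upper left, and the green triangles rise to 7.63 (Hspa1a) on the y axis while staying between -1 and 1 on the x axis.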

How the data were processed

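UMI counts were deposited per library as Cell Ranger 3.0.0 matrices (mm10/GRCm38, per the labels) of 31053 genes; the authors made them with Cell Ranger's own barcode calling, before their cell filters. No normalization had been applied. Barcodes were kept by the filters given above and UMI counts summed per library. Barcodes with at least 3 genes and 5 UMIs of neuron, glia, vessel, choroid plexus or red blood cell markers (155 of 10303) were left in and removed in an alternative. Sums were compared in R 4.3.3 with edgeR 4.0.16 (TMM, filterByExpr with a minimum count of 10, glmQLFit and glmQLFTest, Benjamini-Hochberg adjustment) over the 6 libraries compared. Digestion without inhibitors used its own 6 libraries and the difference of the effects all 12. DESeq2 1.42.0 was an alternative. Fits were also run on simulated data, with changes placed only in genes above a count floor and the same dispersion for every gene. Scarce called genes such as Ptgds and Wdr38 lie below that floor, so their calls were not covered. UMI shares were compared by two-sided exact permutation over 20 assignments. Replicates were separate animals, and pairs differed by more than sampling noise (chi-square per degree of freedom 1.76 to 3.29). Log2 fold changes had a median SE of 0.154.

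Genes were matched to GENCODE M21 by identifier (99.9%), and promoters and microRNAs to RefSeq by symbol. Named genes are the called ones (30 with the smallest p), the 10 uncalled with the smallest p, the 2 with the smallest p of each list, and fixed examples. Genes, lists and comparisons were chosen with earlier results of these data known, and the study's sorted-cell activation list was chosen on these libraries. Alternatives were DESeq2, RLE size factors, no or a stricter filter on low counts (30), batch as a covariate, all or more barcodes (at least 300 genes and 500 UMIs), thinned cells (1000 UMIs) or libraries, removal of other immune cells, of doublet-like barcodes or of mitochondrial, ribosomal and rRNA-like genes, each library left out, all 12 libraries in 1 fit and batch 2 alone. A few tested genes are counted but not reported here by name.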

Additional observations from a re-analysis of the deposited data

Results flagged for a closer look

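The digestion effect (ENZ over DNC, log2) was tested for a difference between the 6 libraries with inhibitors and the 6 without, and 17 genes were called, all with a negative difference. Heat shock genes had differences of -8.56 for Hspa1a (11.9 and 5.67 CPM in DNC-INHIB and ENZ-INHIB, 3.27 and 780 CPM in DNC-NONE and ENZ-NONE), -6.60 for its near-identical copy Hspa1b, -2.15 for Hsp90aa1 and -1.21 for Hsp90ab1. Immediate early genes had -2.68 for Jun, -2.18 for Junb, -2.41 for Jund, -6.02 for the phosphatase Dusp1 (5.75 and 7.41 against 7.38 and 644 CPM) and -2.98 for the mRNA decay factor Zfp36. The difference was -3.56 for the chemokine Ccl3 and -4.28 for Ccl4, -1.93 for Rgs1, a regulator of G protein signaling, and -0.74 for the small GTPase Rhob. Histone genes gave -2.65 for Hist1h1c (51.4 and 37.4 against 47.2 and 211 CPM) and -1.72 for Hist1h2bc. For Klf2 the difference was -3.97, and the sign itself changed: 70.3 and 37.6 CPM with inhibitors, called lower, and 65.7 and 542 CPM without, called higher. With inhibitors, Klf2 was the sole one of the 16 genes tested there that was called. When each of the 12 libraries was left out in turn, Hist1h1c, Hspa1a, Hist1h2bc, Hsp90aa1, Jund and Rgs1 were called every time (6 genes), the others in 4 to 11 fits, and all 17 kept a negative difference.

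In ENZ-NONE, Klf2 and Ccl7 were highest in replicate 6. Without that library the change of Klf2 without inhibitors was 1.97, while that of Ccl7 turned from 1.68 to -0.47.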

How the results depend on the processing

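No paired analysis was possible because the DNC-INHIB libraries are labelled 4 to 6 and the ENZ-INHIB libraries 1 to 3, so no replicate number is shared. In every alternative, each of the 32 called genes that could be tested kept its direction. The 32 calls became 114 (16 higher, 98 lower) with no filter on low counts, 66 (7 and 59) with batch as a covariate, 53 (6 and 47) over all deposited barcodes and again 53 with the looser barcode filter, 94 (9 and 85) in batch 2 alone, 21 (3 and 18) with library sums thinned to the smallest and 15 (1 and 14) with all 12 libraries in 1 fit. Leaving out 1 library gave 12 to 72 calls, the highest without ENZ-INHIB 1 and the lowest without ENZ-INHIB 3, with 11 to 29 of the 32 still called. DESeq2 gave 24, RLE size factors 33, the stricter filter 26, thinned cells 23, removal of other immune cells 42, of doublet-like barcodes 35 and of mitochondrial, ribosomal and rRNA-like genes 39. The stricter filter, thinning and leaving out libraries lower the number of genes, UMIs or samples by construction. Calls fell in some of these settings and rose in others, and the cause was not tested. Without inhibitors the 38 calls became 197 with no filter, 61 in the fit of all 12 libraries and 10 to 72 when 1 library was left out (15 without DNC-NONE 2, 10 without DNC-NONE 3, 72 without ENZ-NONE 6). The 17 differences between the effects became 73 with no filter and 6 to 19 when 1 library was left out. The log2 change of Ccl7 without inhibitors was -0.472 without ENZ-NONE replicate 6 and 2.19 at its highest, without DNC-NONE replicate 2. The difference in ribosomal protein share (ENZ-INHIB minus DNC-INHIB, 0.0838 percentage points) was -0.137 without DNC-INHIB 4 and -0.197 without ENZ-INHIB 3, its lowest, and 0.414 at its highest. That in the identity share (0.0633) was -0.0163 over all deposited barcodes, -0.00858 without DNC-INHIB 4 and -0.0634 without ENZ-INHIB 2, its lowest, with 0.181 at its highest. With 3 libraries a group and a median SE of 0.154 on the log2 scale, small changes and genes with few UMIs were measured with limited precision.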
